A study of Homo sapiens with 9 samples.

Results

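Knockdown of BAP1 was compared with a control transfection in HCCC-9810, an established human cell line of cholangiocarcinoma, the cancer of the bile ducts. The comparison used 6 of the 9 arrays of the series: the 3 titled si-BAP1, from cells given BAP1 siRNAs, and the 3 titled si-Control. The other 3 arrays, si-MBD5, came from cells given siRNAs against the methyl-CpG-binding protein gene MBD5 and entered only the estimate of the spread and a direct contrast. Titles and descriptions call the control si-Control whereas the source and treatment fields name a control shRNA, and the labels do not settle which was used. Neither the dose nor the time after transfection is given in the sources used here, and the cells of all 3 groups were transfected. The labels call the 3 arrays of a group biological replicates, and p-values therefore cover the spread among samples of 1 cell line only. BAP1 itself was not analysed here, and no check of the knockdown on its own target was made.

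BAP1 is a nuclear deubiquitinase. With an ASXL protein it forms the Polycomb repressive deubiquitinase, PR-DUB, which removes from histone H2A the ubiquitin that Polycomb repressive complex 1 attaches, and it also binds the transcription factors FOXK1, FOXK2 and YY1, the cofactor HCFC1 and the glycosyltransferase OGT. Histone H2A ubiquitin and the methyl mark of Polycomb repressive complex 2 accompany repressed genes, and loss of BAP1 can lower or raise a gene depending on where the marks then lie. BAP1 is a tumour suppressor, and inactivating mutations are recurrent in cholangiocarcinoma inside the liver, in mesothelioma and in uveal melanoma.

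Array medians lay between 36.9 and 38.2 in deposited intensity, an arbitrary linear unit of array brightness, and arrays within a group correlated at 0.998 to 0.999 over all probe sets, against 0.996 to 0.997 between si-BAP1 and si-Control arrays. The cells carried the simple keratins of bile duct epithelium, with KRT7 at 1004 ± 48 in si-BAP1 and 1118 ± 42 in si-Control (log2 -0.15, a call that ended without si-BAP1 replicate 1 or 2 or si-Control replicate 1 or 2). Of 15 cholangiocyte markers 12 had a probe set and 7 were above the filter on dim probe sets, while KRT19, EPCAM, SPP1, CFTR and AQP1 were not above it, so the bile duct label was met by keratins only in part. The 12 summed to 4483 to 4588 in si-BAP1 arrays and 4334 to 4677 in si-Control arrays. Markers of other cell types were partly above the filter: 5 of 16 hepatocyte markers with a probe set, 6 of 10 endothelial, 3 of 12 fibroblast and 5 of 12 immune markers. ALB, CDH5, COL1A2 and PTPRC were below it, whereas APOA1, TTR, PECAM1, VWF, COL1A1, ACTA2, CD3E and CD68 of the same lists were above it. The hepatocyte markers summed to 730.2 to 754 in si-BAP1 arrays and 674 to 715 in si-Control arrays, the endothelial to 449.7 to 482 and 455 to 486, the fibroblast to 242 to 261 and 236 to 246, and the immune to 319 to 371.5 and 353 to 364.5. Of the members tested 1 fibroblast marker rose and 1 fell. The ratio of 3′ to 5′ actin control probes, used to judge RNA integrity, was 11.1 ± 0.31 in si-BAP1 and 12.2 ± 0.52 in si-Control (SD, n = 3 each; two-sided exact permutation test, p = 0.1, which 6 arrays in 2 groups cannot go below), with every si-BAP1 array below every si-Control array. The same ratio for GAPDH was 1.08 ± 0.011 and 1.06 ± 0.026 (exact permutation p = 0.3). The part of these values in the results was not tested.

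In si-BAP1 cells many genes changed by small amounts and few by large ones. Of 12431 genes tested, 2918 passed a limma adjusted p of 0.05 (23.5% of genes tested), 1536 higher in si-BAP1 (12.4%) and 1382 lower (11.1%). Changes are given as log2 fold change, the si-BAP1 mean minus the si-Control mean of log2(intensity + 16), with the standard error (SE); because of the added 16 they understate the ratio of raw intensities, most of all for dim genes. Sizes were mostly modest: 1029 of the genes past the threshold lay between 0.25 and 0.5 log2, 185 between 0.5 and 1, and 10 at 1 or more, 5 each way. Bright genes passed more often, with 6.11% of the dimmest quintile and 34.9% of the brightest. All si-BAP1 arrays stood on 1 side of all si-Control arrays in 37.5% of genes tested. Separated arrays in a gene named below are therefore common and support nothing by themselves. The median over all genes was 0.000479 log2. The majority of rises over falls turned without si-BAP1 replicate 2 (1175 higher, 1318 lower) and with quantile normalization (1519 and 1565).

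**Figure D1:**
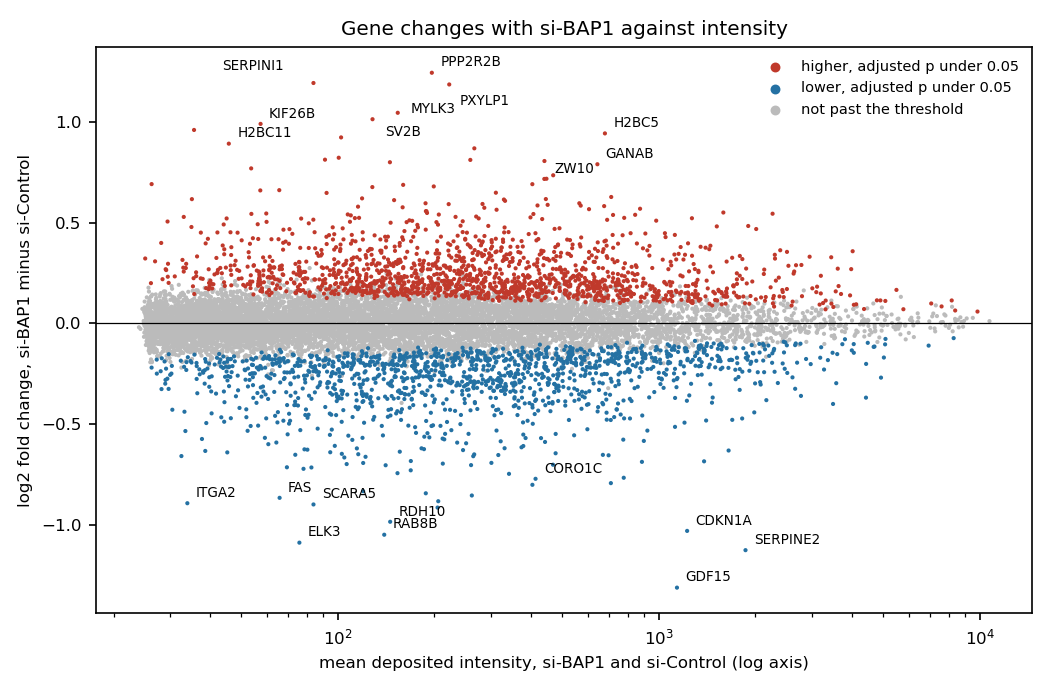
Each point is 1 of 12431 genes, with mean deposited intensity over the 6 arrays on a log x axis and the log2 fold change on the y axis; red and blue mark an adjusted p under 0.05. The named genes reach from -1.31 (GDF15) to 1.24 (PPP2R2B), and most coloured points lie within 0.5 of 0.

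The genes with the largest changes were named on the condition that all si-BAP1 arrays lay on 1 side of all si-Control arrays, so their separation describes the choice and supports nothing. The largest falls were in secreted stress and protease-inhibitor genes, a cell cycle brake, a membrane-traffic GTPase and surface receptors. GDF15, a stress-induced cytokine of the TGF-beta superfamily, read 666, 612 and 665 on the si-BAP1 arrays and 1693, 1666 and 1533 on the si-Control arrays. The 2 ranges were far apart, and the fall was 2.48-fold (log2 -1.31, SE 0.053, limma adjusted p = 6.6e-09). Its 4 other probe sets above the filter also fell, by -0.23 to -1.47 in log2. SERPINE2, a secreted inhibitor of thrombin and plasminogen activators, read 1187, 1142 and 1167 against 2580.0, 2584 and 2516 in si-Control (log2 -1.13, SE 0.028, limma adjusted p = 5.0e-11). It was the brightest of these genes, and all 5 other probe sets fell. CDKN1A, the p21 inhibitor of cyclin-dependent kinases, read 807, 787 and 806 against 1655, 1713 and 1583 (log2 -1.03, SE 0.040, limma adjusted p = 6.1e-09). The 3 si-BAP1 arrays were close together and far below the control arrays.

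RAB8B, a small GTPase of vesicle traffic to the plasma membrane, read 81.3, 86.5 and 87.6 against 171, 206 and 205 (log2 -1.05, SE 0.071). Si-Control replicate 1 was the lowest of the control arrays and still stood well above all si-BAP1 arrays. ELK3, an ETS-family partner of serum response factor, read 36.8, 48.7 and 43.02 against 98.2, 117 and 111 (log2 -1.09, SE 0.084), and RDH10, which oxidises retinol to retinal, 82.3, 103 and 91.9 against 189, 190.2 and 217 (log2 -0.98, SE 0.080). ITGA2, the alpha subunit of a collagen-binding integrin, fell from 48.9 ± 1.4 to 18.98 ± 0.93 (log2 -0.89). Its si-BAP1 level lay below the filter intensity of 25.5, so the gene was dim on these arrays. FAS, the death receptor, read 40.2, 48.9 and 37.2 against 85.8, 88.1 and 94.8 (log2 -0.87), and TNFRSF21, another death-domain receptor, 138, 139.8 and 141 against 244, 275 and 295 (log2 -0.88).

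Further down the same order stood genes of the Polycomb, signalling and actin machinery. PCGF5, a subunit of a variant Polycomb repressive complex 1, fell from 341 ± 25 to 181 ± 3.7 (log2 -0.85), although of its 4 other probe sets above the filter 1 carried the same call and the others ranged up to 0.011. SQOR, a mitochondrial enzyme that oxidises sulfide, fell from 246 ± 3.5 to 130.0 ± 1.5 (log2 -0.84, SE 0.038). PSMB9, an immunoproteasome subunit, fell from 158 ± 5.4 to 81.7 ± 2.7, and RRAS2, a RAS-related GTPase, from 517 ± 33 to 290.0 ± 14. The 2 other probe sets above the filter stood at -0.81 and -0.035 in PSMB9 and at -0.20 and -0.16 in RRAS2. In each gene 1 of them carried the same call. CORO1C, an actin-binding coronin, fell from 525 ± 17 to 301 ± 11, as did all 4 of its other probe sets (log2 -0.45 to -0.89). PPP3CA, the catalytic subunit of the phosphatase calcineurin, fell from 432 ± 25 to 251 ± 11, and TNNT1, the slow troponin T, from 266 ± 15 to 158 ± 6.2. ANPEP, the surface aminopeptidase N, fell from 101 ± 4.2 to 55.1 ± 1.4, PROCR, the protein C receptor, from 89.99 ± 4.9 to 48.7 ± 5.8, and IGFBP6, a binding protein of insulin-like growth factors, from 136 ± 9.5 to 77.4 ± 4.2. SCARA5, a scavenger receptor that takes up ferritin, fell from 114 ± 1.4 to 53.8 ± 2.0 on its brightest probe set, while its 2 other probe sets above the filter stood at -0.020 and 0.0077 and missed the threshold. MAP3K20, a stress kinase that senses stalled ribosomes, was the 1 gene with a change of 0.5 or more and an opposite call on another probe set: its brightest fell (log2 -0.77), 4 others fell, and 1 rose by 0.29.

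The largest rises were in a phosphatase subunit, a glycosaminoglycan enzyme, genes known from neurons and muscle, and histone H2B. PPP2R2B, a regulatory B subunit of protein phosphatase 2A best known from brain, read 275, 299.9 and 272 on the si-BAP1 arrays and 99.3, 104 and 128 on the si-Control arrays. Si-Control replicate 3 was the highest control array and was still far below the lowest si-BAP1 array (2.37-fold, log2 1.24, SE 0.087, limma adjusted p = 5.5e-07). PXYLP1, the phosphatase that clears the xylose phosphate from the linker of nascent glycosaminoglycan chains, read 323, 316 and 306 against 131, 127 and 131 (log2 1.19, SE 0.041, limma adjusted p = 1.6e-09). SERPINI1, the neuroserpin that inhibits tissue plasminogen activator, read 118, 135 and 116 against 43.6, 45.2 and 45.5 (log2 1.19, SE 0.054). The 3 control arrays of these 2 genes were nearly level. MYLK3, the cardiac myosin light chain kinase, read 209, 217 and 211 against 90.5, 101 and 92.5 (log2 1.04), and SV2B, a glycoprotein of synaptic vesicles, 174, 176 and 180.1 against 83.1, 77.7 and 77.9 (log2 1.01). H2BC5, a histone H2B gene, read 908, 922 and 865 against 413, 483 and 486 (log2 0.94) and was the brightest of the 10 largest rises.

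INSL4, a relaxin-family peptide of the placenta, rose from 184 ± 12 to 349 ± 29, ANO2, a calcium-activated chloride channel, from 65.7 ± 1.1 to 139 ± 2.7, and NFATC2, a transcription factor that calcineurin activates, from 68.2 ± 2.2 to 133 ± 8.9. DHRS2, a short-chain dehydrogenase, rose from 61.8 ± 2.1 to 121 ± 4.8, and HAS2, which makes hyaluronan at the plasma membrane, from 35.6 ± 3.5 to 71.8 ± 2.0. GANAB, the catalytic subunit of glucosidase II in glycoprotein folding, rose from 467 ± 16 to 819.9 ± 37 (log2 0.79), with its 4 other probe sets at 0.65 to 0.77. ZDHHC16, a palmitoyltransferase, rose on all 5 of its probe sets (log2 0.65 on the brightest), and TCF3, a basic helix-loop-helix factor, on all 4 (log2 0.74). DCP2, the mRNA decapping enzyme, rose on its brightest probe set (log2 0.81) and on the other above the filter (0.75). P2RY6, a receptor for uridine diphosphate, rose from 119 ± 11 to 201 ± 3.8. KIF26B, a kinesin family member, rose from 33.2 ± 3.5 to 81.6 ± 2.6 on its brightest probe set but stood at 0.043 on the other above the filter. CUX1, a homeobox factor, rose by 0.81 while its 2 other probe sets above the filter stood at -0.044 and -0.0010.

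**Figure D2:**
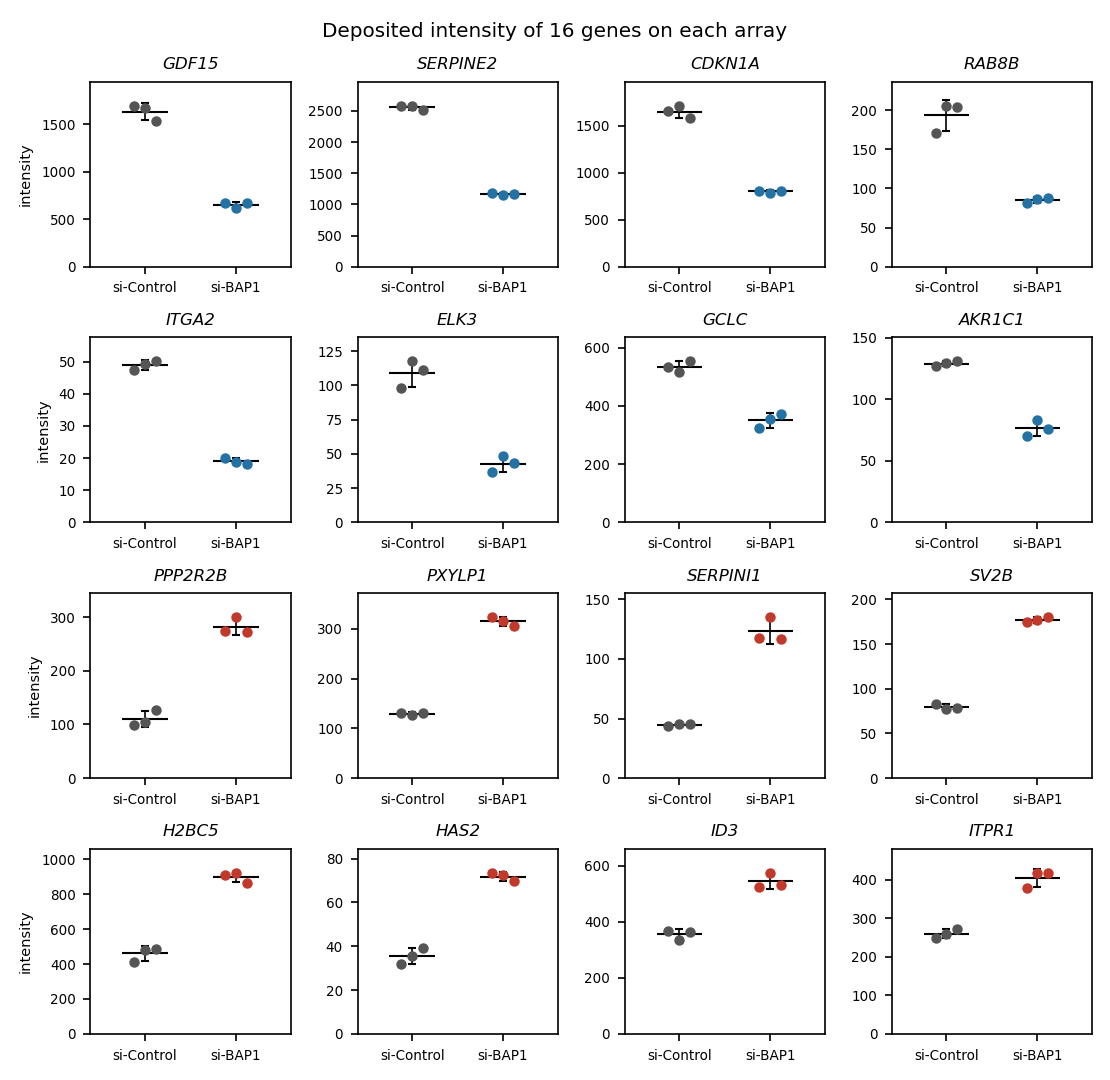
Deposited intensity (y axis, from 0) of 16 genes on each si-Control and si-BAP1 array; points are arrays, the line is the group mean and the bar its SD (n = 3 each). All but GCLC, AKR1C1, ID3 and ITPR1 were chosen among the largest changes with separated arrays. RAB8B, for example, runs from 81.3 to 87.6 in si-BAP1 and from 171 to 206 in si-Control.

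The si-MBD5 arrays gave another reference, from cells that also received siRNAs. Both knockdowns were set against the same 3 control arrays, so their changes against control share those arrays, and the direct contrast of si-BAP1 with si-MBD5 was fitted beside them (1240 of 12431 genes past the threshold, 9.98%). GDF15 read 694 ± 47 in si-MBD5, and si-BAP1 differed from it by log2 -0.10 (SE 0.053, limma adjusted p = 0.305). For CDKN1A the direct difference was -0.013 (SE 0.040, limma adjusted p = 0.891), for FAS -0.0064 (SE 0.072, 0.97), for RAB8B -0.13 (SE 0.071, 0.318) and for GANAB 0.067 (SE 0.055, 0.528). These 5 stood far from control and missed the threshold between the knockdowns, which does not show that the knockdowns acted alike. Against control their si-MBD5 changes were -1.21 (GDF15), -1.02 (CDKN1A), -0.86 (FAS), -0.92 (RAB8B) and 0.72 (GANAB). Such changes were therefore not particular to si-BAP1. Other genes were further from control in si-BAP1 than in si-MBD5 by the direct test: SERPINE2 by -0.55 (limma adjusted p = 2.5e-07), ELK3 by -0.43 (0.0051), PPP2R2B by 0.54 (0.00133), PXYLP1 by 0.62 (1.2e-06), SERPINI1 by 0.55 (3.0e-05) and H2BC5 by 0.56 (4.3e-05). All of these also passed in si-MBD5 against control, in the same direction: SERPINE2 (-0.57), ELK3 (-0.65), PPP2R2B (0.70), PXYLP1 (0.57), SERPINI1 (0.65) and H2BC5 (0.38). A further group stood near control in si-MBD5 and fell in si-BAP1: CORO1C read 536 ± 19.5 in si-MBD5 (direct difference -0.80, limma adjusted p = 3.0e-07), CD2AP, an actin adaptor, 275 ± 39 (-0.92, 2.3e-05), and MAP3K20 918 ± 59 (-0.67, 4.2e-05). CD2AP no longer passed against control once probe sets of the _x_at and _s_at kinds, which can match several transcripts or genes, were removed. DHRS2 moved apart, at 50.8 ± 3.2 in si-MBD5 against 121 ± 4.8 in si-BAP1 (direct difference 1.03, limma adjusted p = 2.5e-07). Most of the largest rises and falls with separated arrays also passed in si-MBD5 against control, in the same direction. Some stand in lists below, with si-MBD5 changes of -0.56 (PSMB9), -0.52 (IER3), -0.59 (ITGA2), -0.47 (ETV5) and 0.62 (ZW10). Of the largest changes, CD2AP, CORO1C, MAP3K20, MEX3C, MPZL3, NUP43, PCGF5 and PPP3CA missed that threshold, and DHRS2 passed in the opposite direction. The list counts below compare si-BAP1 with si-Control only.

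Among the partners of BAP1, the forkhead factor FOXK2, which brings PR-DUB to chromatin, rose and the scaffold ASXL1 fell. FOXK2 read 265, 247 and 257 against 196, 193 and 187 (log2 0.39, SE 0.041, limma adjusted p = 1.5e-05), while its other probe set above the filter stood at 0.080 and missed the threshold. ASXL1 fell by 0.18 on its brightest probe set, a direction that turned when probe sets were averaged (0.035). UBE2O, the ubiquitin ligase that keeps BAP1 in the cytoplasm, rose by 0.17, a call that ended without any 1 of 4 arrays (si-BAP1 replicates 1 and 3, si-Control replicates 1 and 2). The other 7 partners missed the threshold, among them ASXL2 (-0.060), OGT (-0.079), HCFC1 (0.11), YY1 (0.0035), KDM1B (-0.022), MBD6 (-0.014) and FOXK1 (0.078). In all 3 of 10 passed, beside 23.5% of all genes tested. Of the 1219 tested genes that stand in any of the lists, which were chosen with earlier results known, 37.2% passed, so a list with a share near that is ordinary among listed genes. Lists near or below it included Polycomb repressive complex 1 (35%), SWI/SNF (40%), deubiquitinases (31.6%), cytokines (36.4%) and AP-1 factors (29.4%). Iron handling (38.5%), RAB GTPases (40%), protein phosphatase 2A (40%) and the BCL2 family (30.4%) were others.

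Subunits of the Polycomb complexes changed in both directions. In Polycomb repressive complex 1, which places the ubiquitin that BAP1 removes, 5 of 20 rose and 2 fell (3 rose without si-BAP1 replicate 2 or si-Control replicate 1). KDM2B, which guides a variant complex to CpG islands, rose by 0.47 (SE 0.046), AUTS2, an activating partner of PCGF5-type and PCGF3-type complexes, by 0.40, and the chromodomain subunit CBX2 by 0.22, while PCGF5 and PHC1 (-0.17) fell. The ubiquitin ligase RING1 stood at -0.0079 and its adaptor RYBP at 0.027, both short of the threshold. In Polycomb repressive complex 2, 5 of 12 rose and 1 fell: PHF19, a subunit that reads methylated histone H3, rose by 0.41, SUZ12 by 0.27 and MTF2 by 0.22, EED fell by 0.12, and the methyltransferase EZH2 read 248 ± 25 against 219.9 ± 7.1 and missed the threshold, which it passed without si-BAP1 replicate 1. Without 1 array 2 to 5 members of the complex rose: 2 without si-BAP1 replicate 2 or 3 or si-Control replicate 1, and 3 without si-Control replicate 2 or 3. The PHC1, SUZ12 and EED calls each ended without single arrays, as without si-BAP1 replicate 2 for PHC1 and SUZ12 and without si-BAP1 replicate 1 for EED. In the SWI/SNF remodelling complexes, which oppose Polycomb, 7 of 20 subunits rose and 1 fell (4 rises without si-Control replicate 2), led by PHF10 (0.44) and the core subunit SMARCC1 (0.37). Of 18 genes of the COMPASS methyltransferases and H3K27 demethylases only RBBP5 passed (0.30). Deubiquitinases of the UCH family, to which BAP1 belongs, and the USP family split evenly, 6 of 38 higher and 6 lower (3 higher without si-BAP1 replicate 3, si-Control replicate 2 or si-Control replicate 3), none by more than 0.34 in log2 (USP46, lower).

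Many targets of p53, the transcription factor of the DNA damage response, fell. In the list of arrest and growth control 8 of 13 fell and 0 rose (median -0.185), in that of cell death 8 of 17 fell and 1 rose (median -0.108), and in that of repair and metabolism 7 of 11 fell and 0 rose (median -0.235). Their shares past the threshold were 61.5%, 52.9% and 63.6%, beside 23.5% of all genes tested and 37.2% of listed genes. Beside GDF15 and CDKN1A the first held SESN1, a sestrin that restrains mTOR signalling, at 64.9, 74.5 and 81.5 against 121, 107 and 118 (log2 -0.55), GADD45A (-0.47) and PHLDA3, an inhibitor of AKT (-0.41). The phosphatase PPM1D (-0.079), the sestrin SESN2 (0.040) and TOB1 (-0.11) missed the threshold. Among death genes ZMAT3, an RNA-binding growth suppressor, read 29.02, 27.3 and 32.3 against 42.8, 50.1 and 51.8 (log2 -0.49), and the TRAIL receptors TNFRSF10B (-0.28) and TNFRSF10D (-0.29) fell. TNFRSF10B no longer passed once _x_at and _s_at probe sets were removed, nor TNFRSF10D without si-BAP1 replicate 1 or si-Control replicate 3. The BH3-only killers BBC3 (-0.11) and PMAIP1 (-0.11) missed the threshold, and PERP, a desmosomal death effector, rose by 0.35. In repair and metabolism DDB2, which recognises ultraviolet lesions (-0.45), TIGAR, which diverts sugar from glycolysis (-0.41), RPS27L (-0.36) and the ribonucleotide reductase subunit RRM2B (-0.29) fell. The 3 control arrays and 3 si-BAP1 arrays did not overlap in SESN1 or ZMAT3, which held for 37.5% of all genes tested. GDF15 and CDKN1A were chosen for separated arrays.

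Regulators of the passage from G1 to S phase changed in both directions. Of 16 cyclin-dependent kinase inhibitors, G1 cyclins and their kinases, 6 rose and 4 fell. This was 62.5%, beside 23.5% of all genes tested and 37.2% of listed genes. CDK6 rose by 0.27 and the cyclins CCND3 and CCND1 by 0.25 and 0.17, while the inhibitor CDKN2B fell by 0.52 and cyclin CCNE2 by 0.55 (from 259 ± 14 to 172 ± 13). Of 17 E2F factors and subunits of the DREAM repressor 6 rose and 3 fell (52.9% in all). The repressor E2F8 rose by 0.48 (from 146 ± 12 to 209 ± 11), the mitotic activators MYBL2 and FOXM1 by 0.36 and 0.24, E2F1 by 0.24 and its partner TFDP1 by 0.34, while E2F5 fell by 0.29 and E2F3 by 0.20.

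Many genes of DNA replication and mitosis rose by small amounts. Of 25 genes of the replication fork and nucleotide supply 13 rose and 1 fell (median 0.122), and of 21 of origin licensing 8 rose and 1 fell (median 0.124). Mitotic kinases and cyclins gave 11 of 27 higher and 1 lower, kinetochore genes 9 of 27 higher and 0 lower, and spindle genes and kinesins 10 of 20 higher and 1 lower. Of 22 genes of homologous recombination and the Fanconi anaemia pathway 8 rose and 0 fell. The kinetochore (33.3%) and recombination (36.4%) lists passed at shares below the 37.2% of all listed genes. The fork (56%), spindle (55%), mitotic kinase (44.4%) and licensing (42.9%) lists lay above it. These counts varied with the arrays: origin licensing gave 4 rises without si-BAP1 replicate 2 and 4 without si-Control replicate 2, the fork list 8 without si-BAP1 replicate 1 and 8 without si-Control replicate 2, and mitotic kinases 7 without si-BAP1 replicate 3. Against a minimum change of 0.25 log2, in place of 0, 0 members of the licensing, fork, mitotic kinase and recombination lists were higher.

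CDC25A, the phosphatase that frees CDK2 for S phase, read 380.5, 391 and 356 against 283, 289 and 262 (log2 0.42, SE 0.051, limma adjusted p = 5.0e-05). POLA1, the primase-bound polymerase, rose by 0.32, RRM2, the S-phase subunit of ribonucleotide reductase, by 0.31, and TK1, thymidine kinase, by 0.29. GINS1 and GINS2, parts of the replicative helicase, rose by 0.34 and 0.32, and GINS3 fell by 0.28. PCNA, the sliding clamp and also a p53 target, was the 1 fork gene that fell, from 2008 ± 12 to 1771 ± 79.7 (log2 -0.18). CENPA, the histone variant of centromeres, read 1367, 1474 and 1367 against 959, 1053 and 1179.9 (log2 0.40), and the outer kinetochore subunit SPC24 rose by 0.41. ZW10, a kinetochore protein that also tethers Golgi vesicles, rose most in its list, from 334 ± 14 to 559 ± 15. The midzone crosslinker PRC1 rose by 0.22, the chromokinesin KIF4A by 0.27 and ASPM, a spindle pole protein, by 0.27. CDK1, the mitotic kinase, fell by 0.63 on its brightest probe set and stood at -0.010 on the other, which stands for the gene when _x_at and _s_at probe sets are removed. In repair the helicase BLM (0.31), the nuclease EXO1 (0.31) and the Fanconi subunit FANCI (0.25) rose. The arrays of the groups did not overlap in CDC25A or CENPA, while ZW10 was chosen for separated arrays.

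The promoters of 2 pairs of these genes are shown because they hold the letters of E2F and CHR elements, through which E2F factors and the DREAM complex act on cell cycle genes. Sequences are from RefSeq (GRCh38.p14), the 100 bases before the annotated start, 5′ to 3′ on the gene's strand, with the matched letters in capitals. The first pair has an E2F match (TTTCCCGC or TTTGGCGC, either strand): CDC25A, which rose, on the minus strand at chr3:48188418-48188517, and PCNA, which fell, on the minus strand at chr20:5126623-5126722. The second has a CHR match (TTTGAA or TTCGAA, either strand): CENPA on the plus strand at chr2:26785956-26786055 and PRC1 on the minus strand at chr15:90994536-90994635.
CDC25A: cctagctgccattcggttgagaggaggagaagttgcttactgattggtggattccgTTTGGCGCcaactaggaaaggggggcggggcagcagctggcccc
PCNA: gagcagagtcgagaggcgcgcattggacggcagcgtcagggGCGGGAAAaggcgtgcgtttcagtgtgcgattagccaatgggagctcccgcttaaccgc
CENPA: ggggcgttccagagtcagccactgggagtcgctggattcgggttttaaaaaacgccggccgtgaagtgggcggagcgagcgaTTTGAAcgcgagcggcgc
PRC1: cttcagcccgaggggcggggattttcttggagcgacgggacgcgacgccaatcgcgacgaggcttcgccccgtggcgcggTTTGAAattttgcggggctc
The E2F letters stood in 3.63% of the 10128 promoter windows matched to genes tested (250 bases before to 50 after the start) and in 2.31% of all 27305 windows. They were in 8 of 22 windows of the fork list and 9 of 18 of the licensing list. CHR letters stood in 11.5% of windows of genes tested and 16.6% of all windows, and in 11 of 22 windows of mitotic kinases, 14 of 23 of kinetochore genes and 15 of 18 of spindle genes. Over all genes that changed the shares were near the background: CHR letters were in 12% of windows of genes that rose and 11.9% of those that fell, and E2F letters in 4.45% and 3.07%. A match describes the letters and is not evidence of binding.

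Core histone genes gave the most uneven list on the higher side, with 5 of 8 H2B genes higher and 0 lower (median 0.201). This was 62.5%, beside 23.5% of all genes tested and 37.2% of listed genes. H2BC5 and H2BC11 moved most: H2BC11 read 64.7, 68.3 and 59.6 against 26.8, 24.7 and 30.2 (log2 0.89, SE 0.059, limma adjusted p = 3.5e-07). H2BC12 rose by 0.29 and H2BC8 and H2BC9 by 0.20 and 0.20, while H2BC4 (-0.079), H2BC15 (0.035) and H2BC21 (-0.0037) missed the threshold. Without _x_at and _s_at probe sets 3 H2B genes rose, as without si-BAP1 replicate 1, when the H2BC8 and H2BC9 calls ended. Of 11 H2A genes 3 rose and 1 fell, led by H2AC6 (0.46), and of 11 H3 and H4 genes 3 rose and 1 fell (1 rose without si-Control replicate 1), led by H3C4 (0.60). The 6 linker histones tested gave 0 calls at the adjusted threshold. Replication-dependent histone genes are near-identical copies of each other, so a probe set can read more than 1 of them.

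The promoters of H2BC5 and H2BC11 are shown because both hold 4 copies of the CCAAT box, the letters bound by the factor NF-Y, in the stretch printed. They are from RefSeq (GRCh38.p14), with CCAAT on either strand in capitals: 200 bases of H2BC5 on the plus strand at chr6:26157921-26158120 and 220 of H2BC11 on the minus strand at chr6:27132796-27133015.
H2BC5: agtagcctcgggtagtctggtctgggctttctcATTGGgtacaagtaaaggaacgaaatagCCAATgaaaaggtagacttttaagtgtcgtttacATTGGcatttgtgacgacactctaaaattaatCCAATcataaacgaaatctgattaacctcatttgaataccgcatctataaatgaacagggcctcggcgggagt
H2BC11: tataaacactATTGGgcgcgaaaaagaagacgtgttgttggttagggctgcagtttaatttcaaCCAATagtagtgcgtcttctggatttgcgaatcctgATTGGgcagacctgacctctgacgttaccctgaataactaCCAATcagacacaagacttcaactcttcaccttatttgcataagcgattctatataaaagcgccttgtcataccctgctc
The box stood in all 8 H2B windows, in 10 of 11 H2A windows and in 36.4% of windows of genes tested (35.7% of all windows). Among genes that rose 42.4% of windows held it and among genes that fell 33.6%. H2BC4, H2BC15 and H2BC21, whose windows also hold it, missed the threshold.

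Most genes of NF-kB, the transcription factor of inflammation, and its feedback inhibitors fell, with 9 of 13 lower and 1 higher (median -0.189). Their share past the threshold was 76.9%, beside 23.5% of all genes tested and 37.2% of listed genes. IER3, an immediate early survival gene, read 513, 545 and 487 against 932, 912 and 865 (log2 -0.79, SE 0.044, limma adjusted p = 8.2e-08). NFKBIE and NFKBIA, which hold NF-kB in the cytoplasm, fell by 0.49 and 0.32, and the subunits NFKB2 and RELB by 0.48 and 0.41. TNFAIP3, the A20 ubiquitin-editing enzyme that ends NF-kB signalling, went the other way, at 311, 341 and 321 against 228, 239.5 and 255 (log2 0.41). Its 3 si-BAP1 arrays stood wholly above the control arrays. Of 11 chemokines and cytokines tested 4 fell and 0 rose: LIF (-0.62), IL6 (-0.53), IL32 (-0.29) and CXCL16 (-0.18). IL6, the inflammatory cytokine, read 62.1, 66.4 and 50.7 against 88.8, 99.4 and 90.8, with no overlap. LIF and CXCL16 no longer passed without _x_at and _s_at probe sets, CXCL16 also without si-BAP1 replicate 2. The other IL6 probe set above the filter stood at -0.043 and missed the threshold. In the receptor arm of IL6, the shared chain IL6ST fell by 0.31 and the feedback inhibitor SOCS2 by 0.48, while STAT3 stood at -0.0027 and missed the threshold.

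The promoters of NFKBIA, a gene chosen for this after its values were seen, IL6 and TNFAIP3 are printed because each holds NF-kB letters (GGANTTTCC on either strand, in capitals) although TNFAIP3 rose and the others fell. They are from RefSeq (GRCh38.p14): 250 bases of NFKBIA on the minus strand at chr14:35404750-35404999, 120 of IL6 on the plus strand at chr7:22727080-22727199 and 120 of TNFAIP3 on the plus strand at chr6:137867139-137867258. The TNFAIP3 stretch lies before a start inside the gene, whose RefSeq span begins upstream at 137866349.
NFKBIA: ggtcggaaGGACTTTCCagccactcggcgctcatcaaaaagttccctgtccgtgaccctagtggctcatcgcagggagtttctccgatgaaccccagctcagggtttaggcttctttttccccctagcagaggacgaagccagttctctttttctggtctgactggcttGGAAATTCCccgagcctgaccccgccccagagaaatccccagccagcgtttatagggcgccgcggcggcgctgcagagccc
IL6: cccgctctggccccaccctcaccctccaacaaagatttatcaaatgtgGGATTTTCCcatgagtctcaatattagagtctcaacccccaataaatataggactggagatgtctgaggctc
TNFAIP3: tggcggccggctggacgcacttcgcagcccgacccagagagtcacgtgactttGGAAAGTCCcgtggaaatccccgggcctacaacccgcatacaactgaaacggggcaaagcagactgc
These letters stood in 5 of 10 windows of the NF-kB list and 4 of 6 of the cytokine list, beside 1.62% of windows of genes tested and 1.64% of all windows. Among genes that fell 2.55% of windows held them and among genes that rose 1.23%. Of the 10 motifs searched, AP-1 (TGACTCA or TGAGTCA) differed most in ratio between genes that fell and genes that rose, at 4.13% and 1.61% of windows, beside 3.27% of genes tested and 4.92% of all windows. Both shares are descriptions without a test.

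Many antigen presentation and interferon genes fell. Of 18 antigen presentation genes 10 were lower and 1 higher (median -0.215). This was 61.1%, beside 23.5% of all genes tested and 37.2% of listed genes. PSMB9 and PSMB8, the inducible catalytic subunits of the immunoproteasome, read 78.9, 84.3 and 81.9 against 159, 163 and 152 and 195, 216 and 202 against 321, 317 and 281 (log2 -0.83 and -0.55). The groups were also separated in PSMB8, while PSMB9 was chosen for separated arrays. Of the 2 other PSMB9 probe sets above the filter 1 carried the same call, and the weaker stood at -0.035. TAP1, which pumps peptides into the endoplasmic reticulum, fell by 0.53, the proteasome activator PSME2 by 0.40 and HLA-C, a class I molecule with close paralogs, by 0.40, while the class I light chain B2M stood at -0.030 and the chaperone CALR rose by 0.25. Without _x_at and _s_at probe sets 5 of the antigen presentation genes fell. Of 19 interferon response genes 8 fell and 1 rose (47.4% in all), and 5 fell without si-Control replicate 2. The factor IRF1 led at 59.02, 56.1 and 56.2 against 83.5, 87.3 and 80.6 (log2 -0.45), with IFIT5 at -0.24, ISG15 at -0.23 and IFIT3 at -0.23, whereas BST2 rose by 0.11. The IFIT3 call ended without si-Control replicate 2 and the BST2 call without si-BAP1 replicate 1 or si-Control replicate 2. Complement and coagulation regulators gave 6 of 14 lower and 0 higher (3 lower without si-BAP1 replicate 1, si-Control replicate 2 or si-Control replicate 3), with complement C3 at -0.43. Their share past the threshold was 42.9%. IRF letters (GAAANNGAA, either strand) stood in 9 of 15 windows of antigen presentation genes and 9 of 14 of interferon genes, beside 5.87% of windows of genes tested and 8.29% of all windows.

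Some feedback genes of the ERK kinase pathway and some ETS factors fell. Of 16 feedback genes 6 fell, 1 rose and 9 missed the threshold: the ERK phosphatases DUSP6, DUSP5 and DUSP4 fell by 0.37, 0.34 and 0.26, the RAS inhibitor SPRED1 by 0.30 and the receptor EPHA2 by 0.35, and the cyclin CCND1 rose. DUSP6 read 58.6, 70.4 and 61.7 against 78.8, 88.2 and 93.5. Its groups did not overlap. Of 16 ETS factors 5 fell, 2 rose and 9 missed the threshold (median -0.00545). The feedback and the ETS list each passed at 43.8%, beside 23.5% of all genes tested and 37.2% of listed genes. Beside ELK3, ETV5 fell from 196 ± 9.4 to 111 ± 4.9, ETV1 from 152 ± 11 to 87.8 ± 4.0, ETS1 by 0.28 and ETV4 by 0.27. ELK1 and ELK4, the closest relatives of ELK3, rose by 0.17 and 0.18. Among 15 receptor tyrosine kinases and ligands the collagen receptor DDR1 (-0.59), the growth factors FGF2 (-0.43) and NRG1 (-0.33) and the receptor AXL (-0.19) fell. EGFR rose by 0.31, from 424 ± 0.77 to 529 ± 17, and MET stood at -0.013. In the AP-1 list 3 of 17 rose and 2 fell, with FOSL1 at -0.36, KLF4 at 0.36 and MYC at 0.25.

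**Figure D3:**
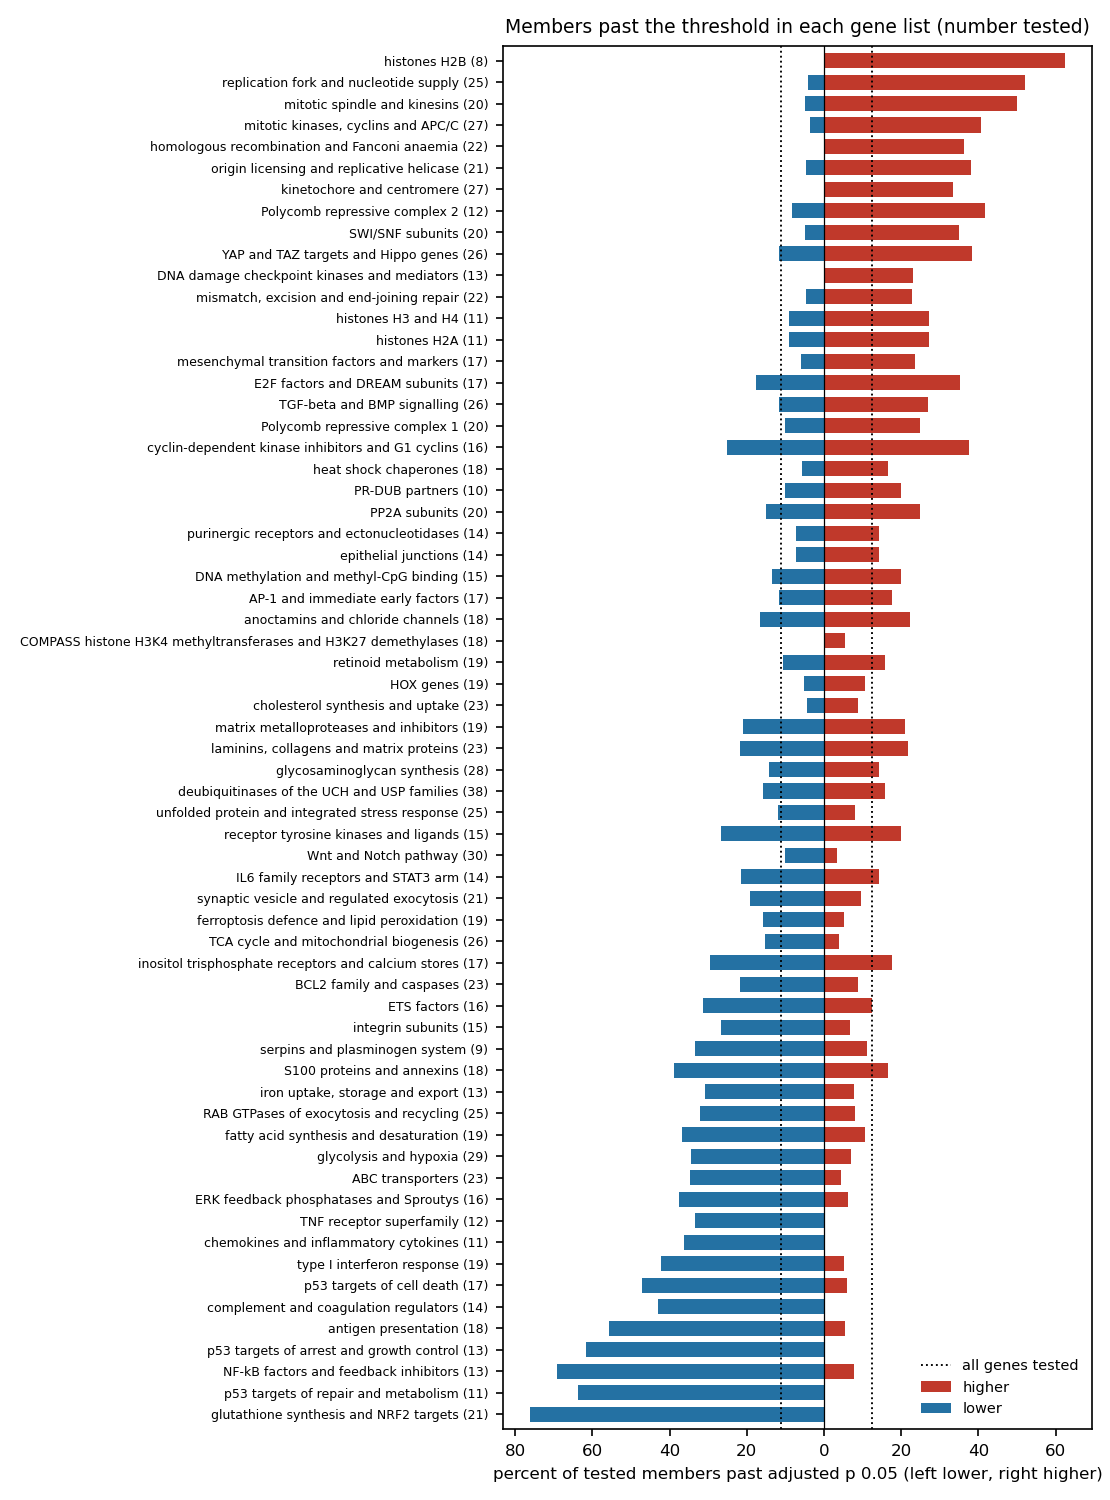
Percent of tested members past an adjusted p of 0.05 in 64 gene lists with at least 8 tested members, lower to the left and higher to the right; the dotted lines are all genes tested (11.1% lower, 12.4% higher). The glutathione and NRF2 list reaches furthest to the left (16 of 21) and the H2B histones furthest to the right (5 of 8).

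Most genes of glutathione synthesis and other targets of NRF2, the factor of the oxidant response, fell. Of 21 tested 16 fell and 0 rose, the median was -0.208, and the sign was negative in all 21. Their share past the threshold was 76.2%, beside 23.5% of all genes tested and 37.2% of listed genes. Without 1 array 13 to 16 fell. GCLC, the catalytic subunit of the first enzyme of glutathione synthesis, read 323, 355 and 373 against 534, 515 and 553 (log2 -0.59, SE 0.059, limma adjusted p = 1.0e-05). AKR1B10, an aldo-keto reductase that clears reactive aldehydes, read 88.5, 95.9 and 88.2 against 151, 155 and 153 (log2 -0.66, SE 0.048). AKR1C1 and AKR1C2, which act on steroids and are near-identical in sequence, fell by 0.65 and 0.57, so their probe sets may read each other. The groups of GCLC and AKR1B10 did not overlap. PGD, a pentose phosphate enzyme that makes NADPH, fell by 0.44, from 374 ± 16 to 271 ± 3.6. The cystine transporter SLC7A11 (-0.021), the transketolase TKT (-0.042) and thioredoxin TXN (-0.079) missed the threshold. In the list of ferroptosis defence 1 of 19 rose and 3 fell, 21.1% in all and below the share of all genes, with the quinone reductase AIFM2 at -0.32 and the transferrin receptor TFRC at 0.27. In iron handling SCARA5, the importer SLC11A2 (-0.38) and the iron sensor ACO1 (-0.20) were among 4 of 13 genes that fell, and 1 rose.

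Some lipid and drug exporters of the ABC family and some metabolic genes fell. Of 23 ABC transporters 8 fell, 1 rose and 14 missed the threshold (median -0.0315). The share of 39.1% was near the 37.2% of listed genes. ABCA1, which loads cholesterol onto apolipoprotein, read 30.3, 32.2 and 33.01 against 54.2, 60.1 and 61.5 (log2 -0.64, SE 0.052), ABCC3, an exporter of conjugated bile acids, fell by 0.65, and the sterol exporter ABCG1 and the drug exporter ABCG2 by 0.51 and 0.43. ABCA13 rose, at 48.1, 63.5 and 45.2 against 15.9, 20.1 and 20.9 (log2 0.96). Its 3 control arrays lay below the filter intensity. Of 19 genes of fatty acid synthesis and desaturation 7 fell and 2 rose (2 fell without _x_at and _s_at probe sets), with the elongase ELOVL5 at -0.48, FADS3 at -0.42 and the carboxylase ACACA at 0.35. Of 23 cholesterol genes 2 rose and 1 fell, a share below that of all genes. In glycolysis and the hypoxia response 10 of 29 fell and 2 rose, led by hexokinase HK1 (-0.50) and the carbonic anhydrase CA12 (-0.48), and GAPDH stood at -0.039.

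RNA of several integrin subunits and matrix genes changed. Of 15 integrin subunits 4 fell, 1 rose and 10 missed the threshold (33.3% passed, below the 37.2% of listed genes). Beside ITGA2, the laminin-binding ITGA6 read 57.5, 62.3 and 56.1 against 93.7, 114 and 112 (log2 -0.71) and ITGA3 59.02, 58.4 and 61.9 against 100.2, 100.2 and 102 (log2 -0.63). The fibronectin-binding ITGA5 fell by 0.21, and their common partner ITGB1 rose by 0.14, a call that ended without si-BAP1 replicate 2 or si-Control replicate 1. Of 23 matrix genes 5 rose and 5 fell (3 fell without si-BAP1 replicate 3 or si-Control replicate 2). The laminin chains LAMC1 (-0.57, a call lost without _x_at and _s_at probe sets) and LAMB2 (-0.27) and the anchoring collagen COL7A1 (-0.32) fell. The basement membrane collagen COL4A1 (0.38), COL5A1 (0.38) and the matricellular THBS1 (0.53) rose. Among glycosaminoglycan genes 4 of 28 rose and 4 fell, near the background share: PXYLP1, HAS2, the chain-initiating xylosyltransferase XYLT1 (0.62) and the sulfotransferase NDST1 (0.26, a call lost without si-BAP1 replicate 1 or 2 or si-Control replicate 1 or 2) rose. The sulfatase SULF2 (-0.58) and the chondroitin sulfotransferase CHST11 (-0.53) fell.

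Several targets of YAP and TAZ, the factors held back by the Hippo pathway, rose, and genes of TGF-beta and BMP signalling changed in both directions. Of 26 YAP and TAZ targets and Hippo genes 10 rose and 3 fell (50% in all, beside 37.2% of listed genes). CCN2 and CCN1, matricellular proteins often used as YAP readouts, read 533, 548 and 540.4 against 322, 320.4 and 404 (log2 0.62) and 378, 409 and 375 against 263, 268 and 291 (log2 0.48). Both were bright and separated the groups. RBMS3 rose by 0.55 and IGFBP3 by 0.48, whereas FSTL1 (-0.30) and AXL fell, and YAP1 (0.10) and TEAD1 (0.032) missed the threshold. Of 26 TGF-beta and BMP genes 7 rose and 3 fell, or 5 fell with quantile normalization. The share of 38.5% was ordinary among listed genes. ID3, a BMP-induced inhibitor of helix-loop-helix factors, read 525, 575 and 533 against 369, 337 and 364 (log2 0.59, SE 0.051, limma adjusted p = 2.8e-06). The ligand BMP2 rose by 0.52, the co-receptor TGFBR3 by 0.34 and the receptor BMPR2 by 0.30, while the antagonist FST fell (-0.24). SNAI2, a factor of the mesenchymal transition, rose by 0.55, and of 30 Wnt and Notch genes 1 rose and 3 fell, fewer than the background.

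Calcium release channels and vesicle genes changed member by member. BAP1 is known to deubiquitinate ITPR3, the type 3 receptor for inositol trisphosphate that releases calcium from the endoplasmic reticulum. At the RNA level ITPR3 read 82.8, 89.6 and 82.3 against 114, 116 and 111 (log2 -0.37, SE 0.053, limma adjusted p = 2.0e-04). ITPR1 moved the other way, at 378, 418 and 417 against 248, 258 and 272 (log2 0.61, SE 0.059), and ITPR2 rose by 0.27, a call that ended with quantile normalization and without single arrays of either group. The groups overlapped in neither gene, but the other ITPR3 probe set above the filter stood at -0.045 and missed the threshold. The calcium pump ATP2B1 (-0.33) and the mitochondrial uniporter MCU (-0.29) fell, and PLCB1, which makes inositol trisphosphate, rose by 0.49. Of 25 RAB GTPases 8 fell and 2 rose (5 fell without _x_at and _s_at probe sets), RAB8B most, then RAB23 (-0.41) and RAB9A (-0.29). Among protein phosphatase 2A subunits 5 of 20 rose and 3 fell (3 rose without si-BAP1 replicate 1): beside PPP2R2B, the catalytic subunit gene PPP2CB fell from 1324 ± 79.8 to 922 ± 42 (log2 -0.51), and PPP2CA stood at -0.14. Of 18 S100 proteins and annexins 7 fell and 3 rose, with S100A16 at -0.48 and ANXA6 at 0.52. In the BCL2 family and caspases 5 of 23 fell and 2 rose, with CASP4 at -0.45 and CASP9 at 0.40.

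**Figure D4:**
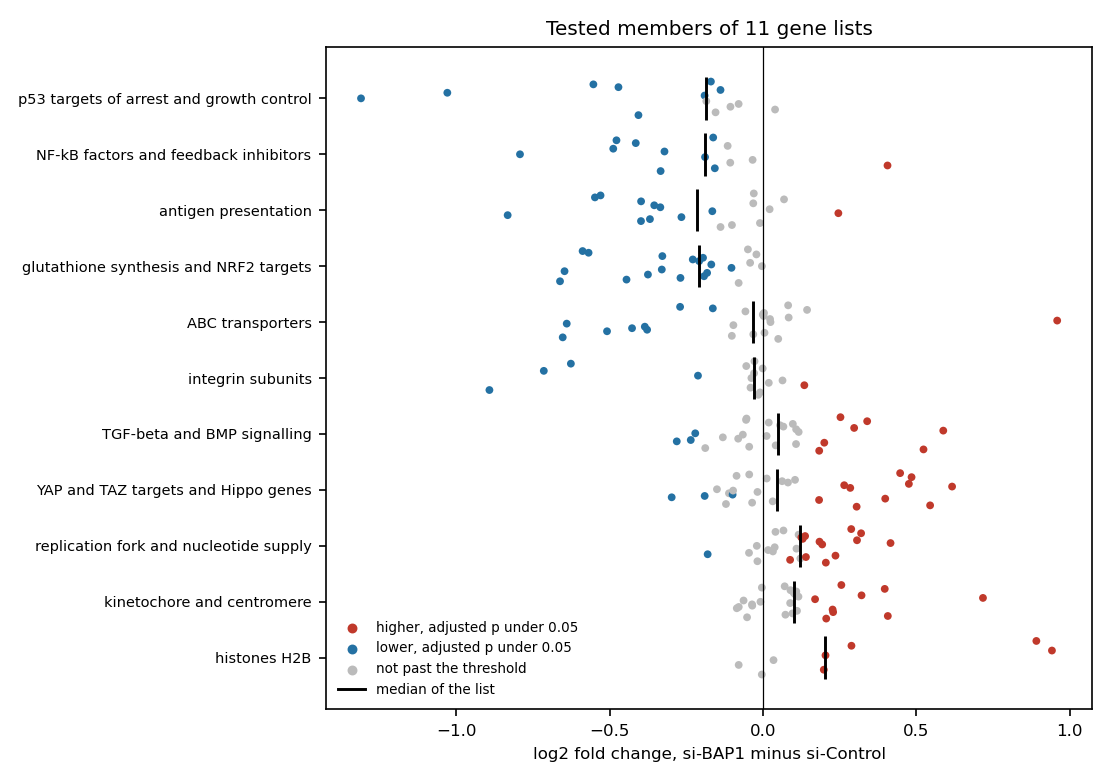
Log2 fold change (x axis) of each tested member of 11 gene lists; colour marks an adjusted p under 0.05 and the black line the median of a list. Medians run from -0.215 (antigen presentation) to 0.201 (H2B histones), and the replication fork members lie close to 0 beside the wide spread of ABC transporters.

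Some lists stood near or below the 23.5% of all genes tested, and below the 37.2% of listed genes. Of 25 genes of the unfolded protein and integrated stress response 2 rose and 3 fell, with ATF4 at -0.0030 and the chaperone HSPA5 at 0.014 on its brightest probe set and -0.35 to -0.11 on its 5 others. Of 19 HOX genes, classical targets of Polycomb, 2 rose and 1 fell, the largest HOXB9 at 0.20. Of 26 genes of the TCA cycle and mitochondrial biogenesis 1 rose and 4 fell (2 without si-Control replicate 2), and of 14 epithelial junction genes 2 rose and 1 fell, with CLDN4 at -0.33. The cytosolic chaperones HSP90AA1 and HSP90AB1 moved apart (0.38 and -0.30), in a list with 3 of 18 higher and 1 lower.

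How far a call rested on the single probe set that stood for the gene was read from the other probe sets. Of 2918 called genes 1967 had another probe set above the filter: the call was shared by every other probe set in 512 genes, by some in 484 and by none in 971, and in 18 genes at least 1 probe set passed in the opposite direction. Large changes were repeated more often, with all other probe sets in 71 of 135 genes of 0.5 log2 or more, some in 34 and none in 30. Among the largest changes without a repeat were BTN2A1, a butyrophilin that gamma-delta T cells recognise (-0.73 on the brightest, -0.065 on the other), MPZL3 (0.66 and -0.044), CD2AP, KIF26B, CUX1 and SCARA5. Probe sets of 1 gene can read different transcripts. NUP43, a nuclear pore subunit, fell by 0.70 on its brightest probe set, whereas 3 of its 4 others above the filter missed the threshold. Its direction turned without _x_at and _s_at probe sets (0.0077). With the probe sets of a gene averaged, the change shrank by more than 1.5 times in RAB8B, PCGF5, RRAS2, SCARA5, MAP3K20, KIF26B, CUX1, CD2AP, FOXK2, KDM2B, PHF19, PHF10, CCNE2, TFDP1, GINS1, SPC24, KIF4A, CDK1, LIF, IL6, IL6ST, CALR, DDR1, FGF2, NRG1, AXL, SLC11A2, ABCC3, ABCG2, ACACA, HK1, CA12, LAMC1, RBMS3, TGFBR3, ITPR3, RAB23, CASP9, BTN2A1 and MPZL3, with the direction kept in each. In the other direction EZH2, TXN, YAP1 and PPP2CA, which missed the threshold on their brightest probe set, passed it when averaged. When _x_at and _s_at probe sets were left out, another probe set stood for some genes and the change moved by more than 1.5 times, with direction and call kept, in ITPR1 (0.25), RRM2 (0.50), PCGF5 (-0.15), ABCC3 (-0.20), USP46 (-0.18), H2BC9 (0.45), FSTL1 (-0.19) and HK1 (-0.27). PMAIP1, which missed the threshold, passed it without si-BAP1 replicate 2 (-0.16), and HCFC1 with only the 2 groups fitted (0.11). An added constant of 64 in place of 16 shrank by its construction the changes of dim genes, by more than 1.5 times in ELK3, ITGA2, FAS, ANPEP, PROCR, SERPINI1, HAS2, H2BC11, ITGA3, ITGA6, ABCA1 and ABCA13 among others.

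**Figure D5:**
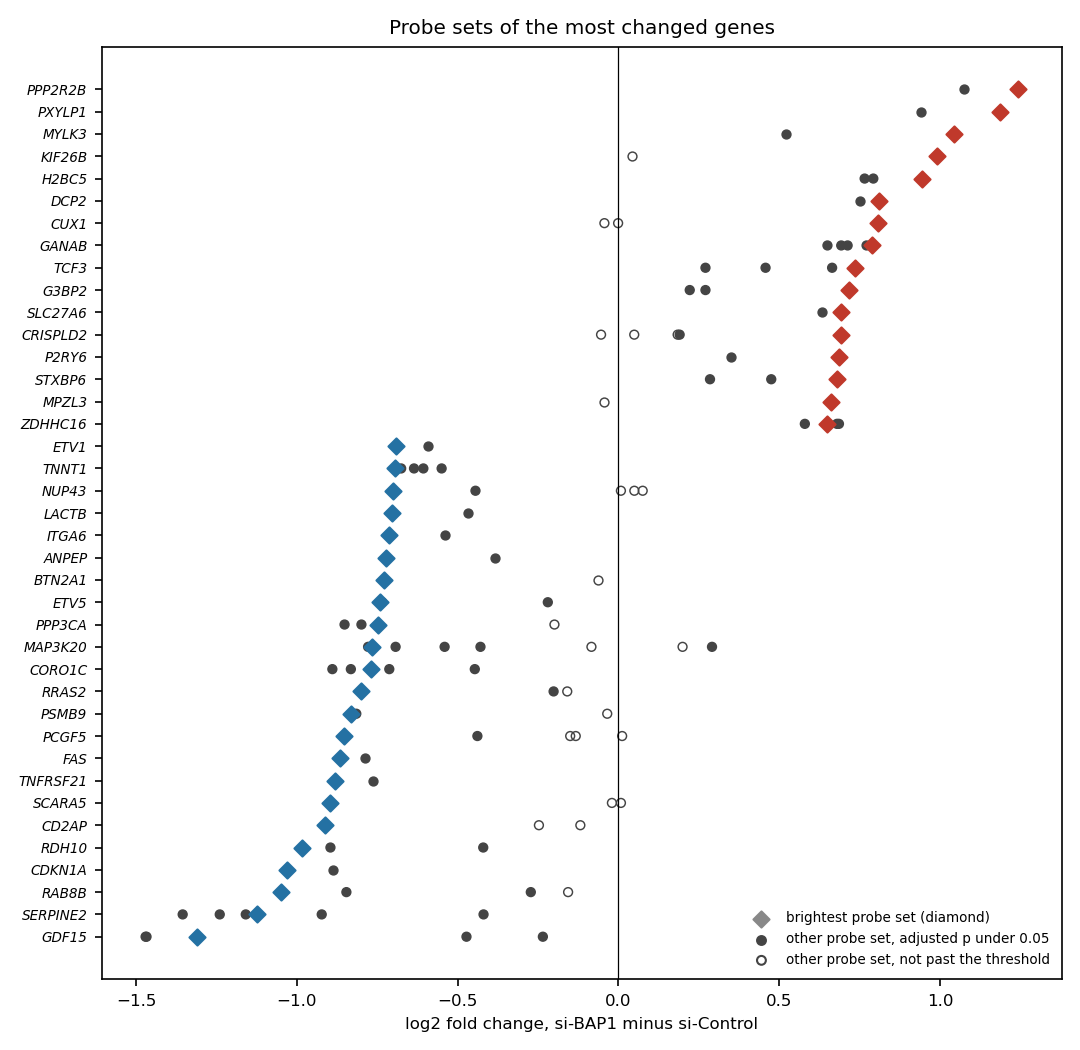
Log2 fold change (x axis) of the probe sets above the filter in the 39 most changed genes that have more than 1; diamonds are the brightest probe set, filled circles others past an adjusted p of 0.05 over all probe sets and open circles others that missed it. GDF15, SERPINE2, GANAB and TNNT1 repeat their change on every probe set, whereas CUX1 and SCARA5 do not.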

How the data were processed

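The authors deposited 1 linear intensity for each probe set on each array, made with MAS5 per the submitters' processing notes (version not given in the sources used here). Per the labels' protocols, Trizol-extracted total RNA (6 ug) was made into biotin-labelled cRNA for Affymetrix arrays. Array medians were near-identical, so the values had been scaled. Of values under 100, 13.4% had decimals on a grid of 9 even steps (tolerance 0.0001, grid chosen after the values were seen; 0.198% if decimals were evenly spread). Averaging over the 9 arrays, as in quantile normalization, would give such steps; no label states it. If it was done, the arrays were not processed independently, which bears on the SDs, on the fit over 9 arrays and on the quantile alternative. No scaling was added.

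Of 49395 probe sets 102 were controls and 44988 carried 1 gene symbol (1832 several, 2473 none; not named). Symbols were updated through a RefSeq gene table (44961 matched, 27 kept). The brightest probe set stood for each gene if above the 40th percentile of mean intensity (25.5), which left 12431 of 18132 genes. log2(deposited intensity + 16) was fitted in limma 3.58.1 (R 4.3.3) with 3 group means over all 9 arrays (6 residual degrees of freedom) and an intensity trend. Adjusted p is Benjamini-Hochberg over all genes, or over all 49293 non-control probe sets without a filter where other probe sets of a gene are given. The si-BAP1 against si-MBD5 contrast came from the same fit. The procedure was also run on simulated data with independent noise for each gene and array. Those data hold no dependence between arrays, so the run does not bear on a joint normalization.

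Genes named were the 30 largest rises and 30 largest falls with separated arrays, and in each of 70 lists (1586 entries, 109 without a probe set) up to 5 members each way and 3 brightest members that missed the threshold, with every tested PR-DUB partner; the exceptions are said where they stand. The comparison, members and lists were chosen with earlier results of these data known. Lists have counts and medians only. Promoter windows (250 bases before to 50 after a start, RefSeq GRCh38.p14) matched 10128 genes tested, and 10 motifs were searched. Replicate numbers were not taken to pair the samples, since the deviations of same-numbered si-BAP1 and si-Control arrays correlated at 0.337, 0.066 and -0.130, over 0.1 in replicate 1 only. Within groups the log2 values had a median SD of 0.056, and the number of arrays limits the precision. Alternatives tried were quantile normalization, median centring, constants of 1 and 64, no filter or one at the 60th percentile, averaged probe sets, a table without _x_at and _s_at probe sets, a replicate block, only the 2 groups, no trend, robust variances, a minimum change of 0.25 log2 and each array left out. Figures used matplotlib 3.10.9 in Python 3.11.15.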

Additional observations from a re-analysis of the deposited data

How the results depend on the processing

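The count of 2918 genes lay between 2335 and 3084 in 12 alternatives other than a minimum change, and between 2245 and 2589 with 1 array left out (higher 1175 to 1389, lower 1056 to 1318). Probe sets past the threshold, 5414 in the main analysis, ranged from 3759 to 4475 with 1 array left out (higher 2102 to 2519, lower 1657 to 2104). A minimum change of 0.25 log2, in place of 0, left 284 genes, 131 higher and 153 lower. With the replicate number as a block, 2851 genes passed (1491 higher, 1360 lower) and 5233 probe sets (2955 higher, 2278 lower); the deviations of same-numbered arrays correlated in replicate 1 (0.337) but not in every pair. Of 393 named genes past the threshold, 276 kept direction and call in every alternative but the minimum change, and 105 in all of them. Both counts cover only the alternatives in which a gene had a value. Genes that dropped out of a setting were not checked there, such as IER3, whose only probe set is of the _s_at kind. Directions turned in 2 of the 393 with the mean of probe sets and in 5 without _x_at and _s_at probe sets. The genes that follow include named genes that had missed the threshold, such as HSPA5. With the mean of probe sets ASXL1 (0.0349), OSMR (-0.00189), HSPA5 (-0.215) and SMAD2 (0.139) turned. Without _x_at and _s_at probe sets CYCS (0.00522), DCLRE1C (0.0322), H2AZ2 (-0.254), HSPA5 (-0.314), LIFR (-0.181), NUP43 (0.0077), RPA1 (-0.0523) and XRCC1 (-0.0517) turned, where another probe set stood for the gene. No alternative was left out. Of the dimmest quintile of genes 6.11% passed, against 34.9% of the brightest, and 3 arrays a group limit every p-value here.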

Other observations

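Several smaller lists gave calls at a share near that of all genes tested (23.5%) or of the genes in any list (37.2%). Of 19 matrix metalloproteases and inhibitors 4 rose and 4 fell (42.1%): the aggrecanase-family ADAMTS1 rose by 0.59 (from 173 ± 3.5 to 269 ± 5.0) and ADAM15 by 0.54, while ADAM17, the sheddase of tumour necrosis factor, fell by 0.38 and the inhibitor TIMP2 by 0.28. Of 21 genes of regulated exocytosis 2 rose and 4 fell (28.6%), with SV2B and the SNARE-binding STXBP6 (0.68) higher and the plasma membrane SNARE STX4 (-0.27) lower. Of 12 TNF receptor superfamily genes tested 4 fell and 0 rose (33.3%), TNFRSF21 most, then the decoy receptor TNFRSF11B (-0.37). Of 15 genes of DNA methylation and methyl-CpG binding 3 rose and 2 fell (33.3%), with the dioxygenase TET3 at 0.41 and the glycosylase TDG at 0.33, and the maintenance methyltransferase DNMT1 stood at 0.045 and missed the threshold.

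In NONO and VWA5A, chosen after their values were seen, the brightest probe set rose while 3 of the 5 others above the filter passed the threshold in the opposite direction. NONO, a nuclear RNA-binding protein, rose by 0.093 on its brightest probe set and fell by 0.15 to 0.21 on 3 others, while 1 other also passed as higher. VWA5A rose by 0.26 on its brightest and fell by 0.30 to 0.47 on 3 others, while the other 2 also passed as higher.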
